A study of Mus musculus with 34 samples.

Results

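The Myc, Max and Mxd network is a family of transcription factors that bind DNA in pairs, and its H3K4me3 was examined here at 10 genes taken by name: Myc, Mycn, Mycl, Max, Mxd1, Mxd3, Mxd4, Mxi1, Mnt and Mlx. They are 10 of 21938 protein-coding genes of the GENCODE M21 annotation of mm10, and all 10 passed the filter on low signal that left 9931 promoters for testing. H3K4me3, trimethylation of lysine 4 of histone H3, marks the promoters of genes in use. It was profiled by CUT&RUN, a method in which micrococcal nuclease is tethered to a chromatin mark through an antibody and cuts out the DNA beneath it for sequencing. The 4 libraries came from scraped villi of small intestine without visible lesions, taken from mice on the C57BL/6J background, 2 labelled wild type (WT) and 2 labelled ApcMin/+. The ApcMin/+ mice carry a mutant allele of Apc, the tumour suppressor that restrains Wnt signalling, beside a normal allele. The labels give an age of 5 weeks for both groups, while the study's methods give 1 week more. Not analysed here were libraries made with other antibodies or with none, RNA-seq and mice of 12 weeks. The comparison asks whether the mark at this network differed between the genotypes in epithelium that still looked normal.

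Myc, Mycn and Mycl encode the growth-promoting factors of the network, which bind DNA only after pairing with Max. The Myc and Max pair binds the E-box, the sequence CACGTG, and activates genes of ribosome building, metabolism and cell division. Mxd1, Mxd3, Mxd4, Mxi1 (also called Mxd2) and Mnt compete for Max at the same sequence and bring the Sin3 and histone deacetylase corepressors, while Mlx pairs with some of the Mxd proteins, with Mnt and with the glucose-sensing factors Mlxip and Mlxipl. In the intestine Myc is a target of Wnt signalling that is active in the crypts, and Mxd1 is known for its rise as cells leave the cell cycle and move up the villus.

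Depth was 1430000 and 4790000 tags in WT replicates 1 and 2, and 3700000 and 5470000 in ApcMin/+ replicates 1 and 2. ApcMin/+ replicate 1 stood apart from the other 3 libraries: 43.2% of its signal lay in enriched regions, against 11.9% to 22.5% in the others, and its median tested promoter was 1.45 higher than that of ApcMin/+ replicate 2 on the log2(signal + 1) scale. The median promoter of ApcMin/+ replicate 2 was 0.13 above the mean of the WT libraries, so most of the difference between the groups over all promoters came from 1 library. The villus label was checked against markers of enterocytes, the absorptive cells of the villus: their mean signal was 6.24, 3.51, 16.5 and 4.48 in WT replicates 1 and 2 and ApcMin/+ replicates 1 and 2, and 9 of 10 passed the filter. None of 7 immune, 6 mesenchymal and 6 other-tissue marker promoters passed it, with mean signals of 0.60 to 1.22, 0.54 to 0.95 and 0.28 to 0.62 over the 4 libraries. Of the secretory-cell, crypt stem cell, proliferating-cell and housekeeping markers, 0 of 5, 3 of 6, 6 of 6 and 6 of 6 passed it. H3K4me3 gives no check of the Apc allele itself. Nothing in the labels links the libraries to litters or batches. The study's methods name 2 ApcMin/+ and 2 wild-type mice for CUT&RUN at the younger age, without tying them to libraries. Where the libraries do not come from separate mice the p-values measure technical spread only.

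The promoter sequence of 9 of the 10 genes was taken from RefSeq on GRCm38.p6, as 300 bases from 250 before to 50 after the RefSeq start. Myc had no entry in the promoter set used, so its sequence was not searched for any motif. For Mxi1, which has 3 RefSeq starts, the one nearest the gene 5′ end was used. The RefSeq start lay 279 bp from the gene 5′ end at Mycl, and 2 to 92 bp from it at the other genes. The H3K4me3 levels below are centred on the gene 5′ end. The E-box was present in 4 of these 9, those of Max, Mnt, Mxd4 and Mlx, whereas 8.03% of 20150 promoters of protein-coding genes held it. By mean percentile over the 4 libraries these 4 genes also had the highest H3K4me3 of the network, as described next. Myc, which was not searched, had a higher level than Mxd4 and Mlx in both ApcMin/+ libraries. The overlap of E-box and level is a description of 9 promoters, noticed after their levels were known, and no test was made. The E-box lay 219 bases before the start of Mxd4, 123 before that of Mnt and 40 before that of Mlx, and at Max it began 3 bases before the start and ran across it. The E-boxes are shown in capitals with the bases around them, since CACGTG is the sequence that the network's own proteins recognise:
Max, chr12:76962246-76962271, minus strand: cccggcgcggtgagcccggtCACGTG
Mnt, chr11:74830781-74830826, plus strand: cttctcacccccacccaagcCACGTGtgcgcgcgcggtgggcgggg
Mxd4, chr5:34187904-34187949, minus strand: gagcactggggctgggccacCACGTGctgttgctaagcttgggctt
Mlx, chr11:101087230-101087275, plus strand: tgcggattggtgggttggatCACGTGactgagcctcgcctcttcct

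The other motifs searched, on both strands, were GGGCGG, the GC box bound by Sp1, TATAAA, the TATA box, and CTTTGAT, a site of TCF/LEF, the factors through which Wnt signalling acts. The GC box was present in 7 of 9 promoters and in 47.8% of all. CTTTGAT was in none of the 9 and in 3.16% of all, which says only that these letters are not in these windows. Myc was not among the 9. TATAAA was found in Mycl alone, as a match of letters 8 bases before the RefSeq start, and in 12.1% of all. Whether it acts as a TATA box was not tested. CpG dinucleotides, which are dense in promoters that tend to carry H3K4me3, numbered from 14 in Mycn to 39 in Mxd1, against a median of 14 over all promoters, and a RefSeq start 19177 bp into Mxi1 had 49. Mxd3, the gene with the lowest H3K4me3 of the network, had 25 CpG and 8 GC boxes, more of the latter than any other of the 9. The sequences before the starts of Mxd1, richest in CpG of these 9, of Mxd3 and of Mycl are shown with GC boxes and TATAAA in capitals, overlapping GC boxes run together:
Mxd1, chr6:86669160-86669259, minus strand: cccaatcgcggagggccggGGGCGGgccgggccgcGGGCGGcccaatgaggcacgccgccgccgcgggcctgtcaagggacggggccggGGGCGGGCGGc
Mxd3, chr13:55329732-55329981, minus strand: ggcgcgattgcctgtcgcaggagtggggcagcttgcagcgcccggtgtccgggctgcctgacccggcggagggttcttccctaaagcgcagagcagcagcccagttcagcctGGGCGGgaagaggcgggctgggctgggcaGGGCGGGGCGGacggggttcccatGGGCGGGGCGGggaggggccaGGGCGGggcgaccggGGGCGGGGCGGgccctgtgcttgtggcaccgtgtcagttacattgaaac
Mycl, chr4:122995831-122995930, plus strand: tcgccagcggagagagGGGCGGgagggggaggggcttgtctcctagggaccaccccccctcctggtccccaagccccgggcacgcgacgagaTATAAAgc

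The level of a promoter is its mean deposited signal per base within 1000 bp of the gene 5′ end, and values are given in the order WT replicate 1, WT replicate 2, ApcMin/+ replicate 1 and ApcMin/+ replicate 2. Max, the shared partner of the network, had the highest mean rank, with 6.63, 4.72, 21.6 and 7.61 at its 5′ end on chromosome 12 at position 76962201. It stood at the 75.7, 84.7, 82.1 and 94.2 percentile of the tested promoters of the 4 libraries. Mnt, a broadly expressed repressor, followed with 6.45, 4.90, 28.5 and 5.73 at position 74830920 of chromosome 11. Both lay above the library's median promoter in all 4 libraries. Mxd4 had 7.67, 4.76, 16.2 and 5.57 (chromosome 5, position 34187720) and Mlx had 8.38, 3.95, 14.3 and 4.51 (chromosome 11, position 101087277), and both were above the median in every library as well. Mxd1 had 4.53, 3.94, 13.5 and 4.61 (chromosome 6, position 86669161), which placed it at the 51.0, 71.3, 51.5 and 59.6 percentile.

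Myc had 1.51, 3.09, 19.96 and 5.79 at its 5′ end on chromosome 15 at position 61985391. Its percentile went from 6.88 in WT replicate 1 and 50.6 in WT replicate 2 to 77.6 and 79.0 in the ApcMin/+ libraries, a spread of 33.7 (SD, n = 4) where the other 9 genes had 5.06 to 15.0. Mycn had 3.49, 2.52, 12.3 and 4.02 (chromosome 12, position 12941914) and Mxi1 had 3.84, 2.84, 9.64 and 3.15 (chromosome 19, position 53310518). These genes lay below the median promoter in every library. The lowest levels were those of Mycl, with 2.44, 2.40, 5.44 and 1.97 (chromosome 4, position 122995652), and of Mxd3, with 1.74, 1.48, 4.58 and 2.67 (chromosome 13, position 55329823). Mxd3 stayed between the 6.70 and 18.0 percentile and Mycl between the 6.49 and 31.1 percentile of the tested promoters.

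By mean percentile the order was Max, Mnt, Mxd4, Mlx, Mxd1, Myc, Mycn, Mxi1, Mycl and Mxd3. Most neighbours in this order did not differ beyond the spread over the libraries. Mxi1 was above Mycl in 4 of 4 libraries, by 0.47 ± 0.23 on the log2(signal + 1) scale (mean and SD of the within-library differences) and this was the largest step between neighbours. The other 8 steps were smaller than their own SD, for example 0.12 ± 0.66 from Myc to Mycn. Across wider gaps the order held for some pairs: Max was higher than Mycn by 0.75 ± 0.03 and higher than Mxd3 by 1.48 ± 0.38, each in 4 of 4 libraries. The place of Myc did not hold. Mxd4 was above it in 2 of 4 libraries (0.49 ± 0.93), as was Mlx (0.36 ± 1.08).

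**Figure D1:**
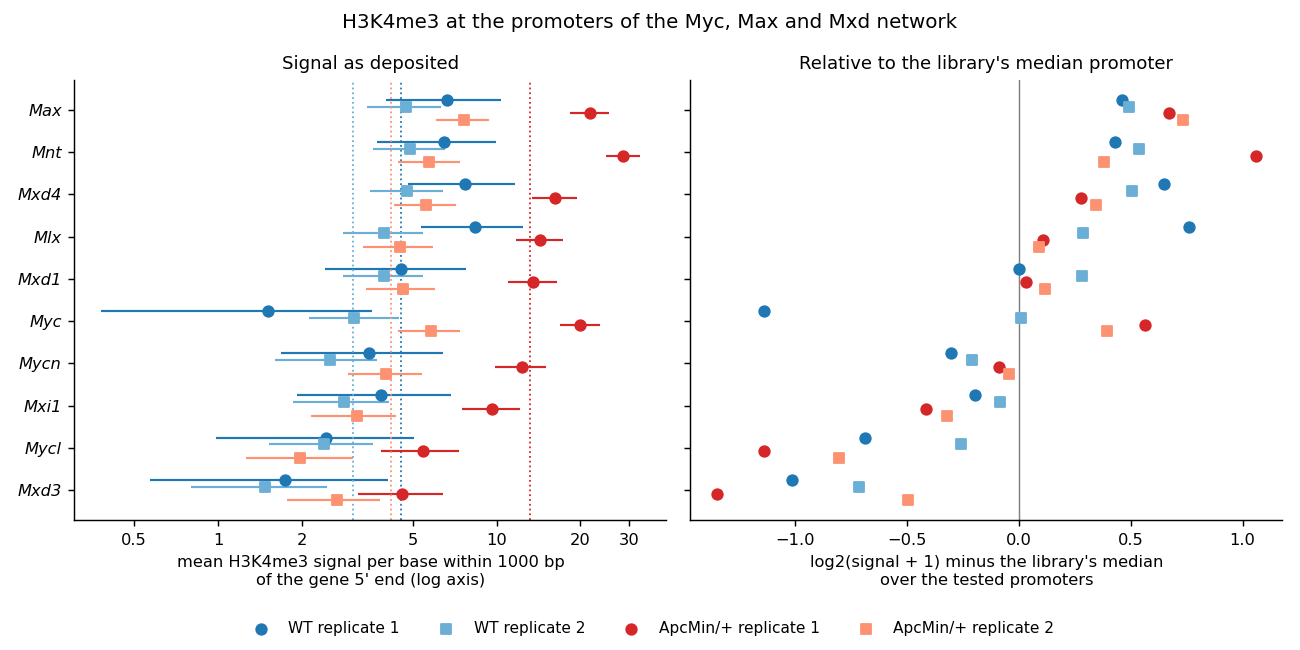
H3K4me3 at the 10 promoters, ordered by mean percentile. Left, signal per base within 1000 bp of the 5′ end on a log axis, with 95% exact Poisson intervals of the fragment counts as bars and the median tested promoter of each library as dotted lines; right, log2(signal + 1) minus the library's median, with 0 as the median promoter. ApcMin/+ replicate 1 is highest at every gene on the left, from 4.58 at Mxd3 to 28.5 at Mnt, whereas on the right the ApcMin/+ libraries fall on both sides of the WT libraries and are highest above them at Myc.

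Fragment counts set the precision of these values. A promoter of the network held 4 to 24 fragments in WT replicate 1, 14 to 47 in WT replicate 2, 34 to 211 in ApcMin/+ replicate 1 and 22 to 83 in ApcMin/+ replicate 2. The value of Myc in WT replicate 1 rests on 4 fragments, with an exact Poisson 95% interval of 0.38 to 3.58, which overlaps the 2.12 to 4.48 of WT replicate 2. The intervals of Myc in ApcMin/+ replicates 1 and 2 were 16.9 to 23.5 and 4.43 to 7.37, the latter overlapping the interval of WT replicate 2 at its lower end. These intervals cover counting error only, since they are Poisson intervals of fragment counts and leave out the spread between libraries.

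All 10 promoters had a higher mean in ApcMin/+ than in WT libraries under the deposited scaling, and none passed the test. The mean was 12.9 ± 10.0 in ApcMin/+ against 2.30 ± 1.12 in WT at Myc (SD, n = 2 in each group), 17.1 ± 16.1 against 5.67 ± 1.09 at Mnt, and 14.6 ± 9.88 against 5.67 ± 1.35 at Max. On the log2(signal + 1) scale the difference was 1.90 ± 1.00 (SE) at Myc, with an adjusted p of 0.683 in limma over all 9931 promoters. The other 9 differences ran from 0.36 at Mycl to 1.09 at Mnt, with adjusted p-values of 0.683 to 0.742 in limma. The median of the 10 was 0.79, close to the median of 0.85 over all tested promoters. With limma 0 of 9931 promoters (0%) passed the threshold of 0.05, and 131 had an unadjusted p under 0.05, none of them a member.

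In 5 of the 10 genes both ApcMin/+ libraries lay above both WT libraries: Myc, Mycn, Max, Mxd1 and Mxd3. Mxd3 passed the filter, a mean of at least 2 over the 4 libraries, only through its ApcMin/+ values. Its mean was 1.61 in WT and 3.63 in ApcMin/+, so its place among the 5 carries no weight. The order of libraries seen at these 5 genes was also found at 38.5% of all tested promoters, so 5 of 10 is not far from the background. No member had both ApcMin/+ libraries below both WT libraries, which 0.161% of promoters had. At Mycn the higher WT value of 3.49 and the lower ApcMin/+ value of 4.02 had overlapping counting intervals, and at Mxd1 the corresponding values were 4.53 and 4.61. At Mxd4, Mlx, Mxi1 and Mnt ApcMin/+ replicate 2 lay between the WT libraries, and at Mycl it was the lowest of the 4 libraries.

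The library that stood apart decided the size and the call of these differences. Without ApcMin/+ replicate 1 the difference was 1.08 at Myc, 0.49 at Mxd3, 0.38 at Max and 0.34 at Mycn, and it was below 0 at Mycl (-0.20), Mxd4 (-0.11), Mxi1 (-0.05) and Mlx (-0.31). Without ApcMin/+ replicate 2, so that ApcMin/+ replicate 1 stood alone against the WT libraries and was assumed to vary as they do, 7 of the 10 genes passed limma's threshold: Myc, Mycn, Max, Mxd1, Mxd3, Mxi1 and Mnt. In that fit 65.2% of all tested promoters passed.

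Relative to each library's median promoter, the difference between the genotypes was largest at Myc and did not pass the test. After each library was centred on its median the difference was 1.04 ± 0.30 at Myc, 0.23 ± 0.29 at Mnt, 0.22 ± 0.29 at Max and 0.19 ± 0.31 at Mycn. Mxd3 (-0.06) and Mxd1 (-0.07) were near 0, and Mxi1 (-0.23), Mxd4 (-0.27), Mlx (-0.42) and Mycl (-0.50) were below it. The median of the 10 was -0.06, against -0.01 over all tested promoters. Myc ranked at position 15 of 9931 by this difference, with an unadjusted p of 0.00046 and an adjusted p of 0.218 in limma, which is past the threshold only before adjustment. Centring gave 12 calls among all promoters (0.121%), none of them in the network.

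Both ApcMin/+ libraries were above both WT libraries after centring at Myc, Mycn and Max, 3 of 10 against 13.1% of all tested promoters, and below them at Mycl, Mxd4, Mxi1 and Mlx, 4 of 10 against 14.3%. For Myc the centred values were -1.14 and 0.01 in WT and 0.56 and 0.39 in ApcMin/+, so the gap between the groups was smaller than the gap between the WT replicates. The size of the Myc difference depended on WT replicate 1, the shallowest library. Without that library the centred difference at Myc was 0.47, without WT replicate 2 it was 1.62, and without ApcMin/+ replicate 1 or 2 it was 0.96 or 1.13. Of the centred fits only that without WT replicate 2 called Myc, with an adjusted p of 0.0014 in limma, and it called 0.181% of all promoters. Among the proliferating-cell markers 6 of 6 had both ApcMin/+ libraries above both WT libraries under the deposited scaling, as did 38.5% of all tested promoters, and none of the 6 passed the test. Their median difference was 1.11, or 0.25 after centring. After centring, 1 of 6 had groups that did not overlap in that direction. Of these markers Ccnb1, with 1.74 and 1.88 in WT, passed the filter only through its ApcMin/+ values. Its place among the 6 carries no weight. The 3 crypt stem cell markers that passed the filter had a median difference of 0.78, or -0.08 after centring. They differed among themselves, with centred differences of -0.37 at Axin2, -0.08 at Smoc2 and 0.61 at Rnf43. Smoc2, with 2.09 and 1.36 in WT, likewise passed the filter only through its ApcMin/+ values. The mean signal of the 6 proliferating-cell markers was 3.77, 3.32, 13.7 and 5.16 over the 4 libraries, and the part of such cells in the Myc values was not tested. In these bulk samples more cells with a marked promoter and more mark per cell cannot be told apart.

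**Figure D2:**
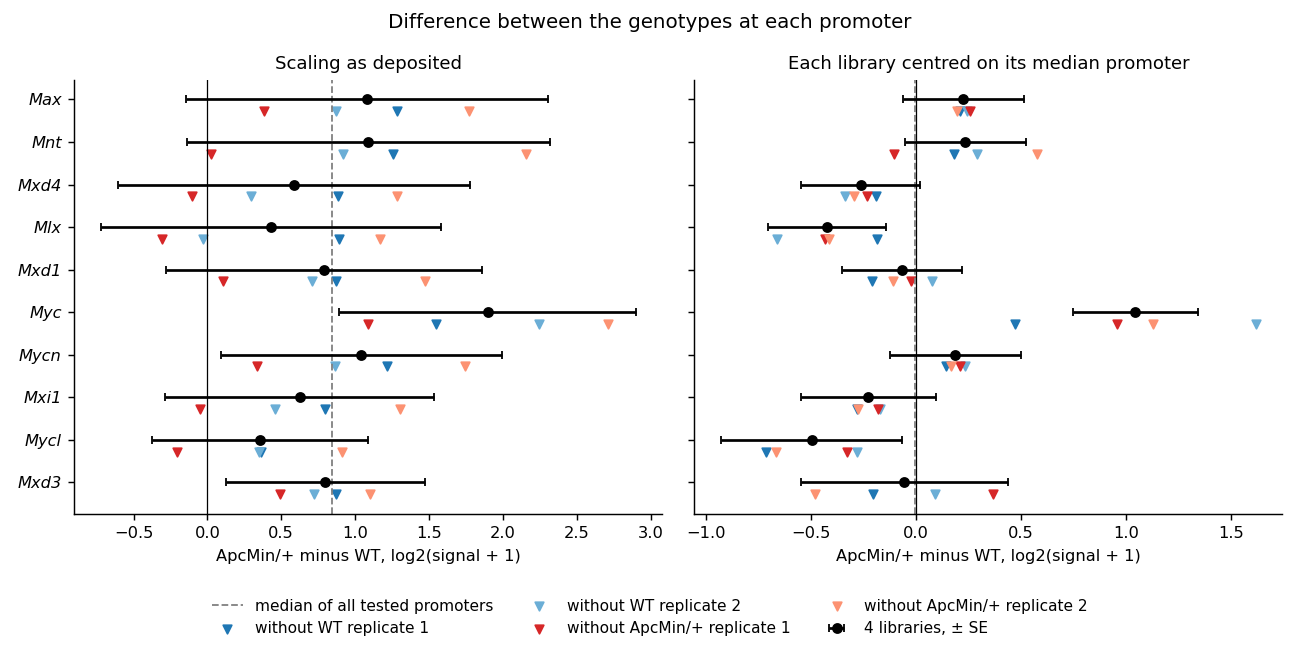
Difference between ApcMin/+ and WT on the log2(signal + 1) scale at each promoter, under the deposited scaling (left) and after centring (right). Black points are the 4-library estimates with their SE, triangles the estimates with 1 library left out, and the dashed line is the median of all tested promoters. On the left the triangles without ApcMin/+ replicate 1 lie lowest at all 10 genes. On the right Myc, at 1.04, is the sole gene whose SE does not reach below 0.5, and its triangles spread from 0.47 to 1.62.

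Over the other scalings, windows, starts, filters and pseudocounts tried, the Myc difference stayed between 0.97 and 2.26 with adjusted p-values of 0.218 to 0.884 in limma. Mycn, Max and Mnt kept a positive difference under all of these settings. The other members, apart from Mxd3 under quantile normalization, had a difference below 0 when the libraries were centred or quantile-normalized.

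The 3 tested promoters most like Myc over the 4 libraries were Pfkm, Leng9 and Smc2, at Euclidean distances of 0.27, 0.27 and 0.35 on the log2(signal + 1) scale. Pfkm, a muscle-type phosphofructokinase, had 1.72, 3.07, 16.8 and 5.63, and Smc2, a condensin subunit, had 1.74, 3.07, 17.7 and 4.57. Such likeness over 4 libraries describes the values and nothing more.

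The mark was broad at most of the genes. Its extent was measured as the length within 5000 bp of the 5′ end where the signal, averaged over 5 bins of 100 bp, was at least 5 times the genome-wide mean of the library. All marked bins in that reach were summed, joined or not, so signal at other gene starts there is included. At Mlx this takes in the start of Coasy, 4712 bp away. The highest averaged signal in WT replicate 1 (20.4) and ApcMin/+ replicate 1 (40.7) lay near that start. The median extent of the 10 genes was 3200, 3250, 5000 and 4100 bp in the 4 libraries, against 2100, 1600, 2600 and 2000 bp over all tested promoters. Mnt, with 6200, 4600, 7100 and 5300 bp, Mxd1, with 4900, 5200, 5900 and 5600 bp, and Mxi1, with 5500, 4800, 5600 and 5200 bp, were at or above the 94.9 percentile of all tested promoters in each library. Mxi1 combined this length with a level below the median promoter around its 5′ end. Mycl, with 2100, 1700, 2800 and 2000 bp, was near the middle, at the 47.1 to 53.7 percentile.

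Extent also ordered the groups at Myc, which had 1900 and 3400 bp in WT and 6200 and 4500 bp in ApcMin/+, a mean of 5350 ± 1202 bp against 2650 ± 1061 bp (SD, n = 2 in each group). The two-sided exact permutation p was 0.333, the smallest that 2 libraries against 2 can give. Both ApcMin/+ libraries exceeded both WT libraries in 5 of 10 genes, Myc, Mycn, Max, Mxd1 and Mxd4, against 36.5% of all tested promoters, and each of these 5 had the same exact p. The median difference in extent over the 10 genes was 750 bp, and 425 bp without ApcMin/+ replicate 1. Mycn had 3000 and 1900 bp in WT and 4400 and 3900 bp in ApcMin/+, and Max had 3200 bp in both WT libraries and 6200 and 3600 bp in ApcMin/+. The remaining 5 genes overlapped, with differences of -100 to 800 bp and exact p-values of 0.667 to 1, and none had both ApcMin/+ libraries below both WT libraries (0.957% of promoters). In WT replicate 1, 1 fragment adds 1.40 to the averaged signal, so that 2 fragments within 500 bp passed the 1.83 that counted as marked, where the other libraries needed 4 to 6. At Mxd3 that library had the longest extent of the 4, with 3200 bp where the others had 1000 to 2300 bp. At 10 times the genome-wide mean only Myc and Mycn had groups that did not overlap (2 of 10, with 37.2% of all promoters), with 500 and 1200 bp in WT and 4800 and 4200 bp in ApcMin/+ at Myc, and 1600 and 200 bp against 4000 and 2000 bp at Mycn.

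**Figure D3:**
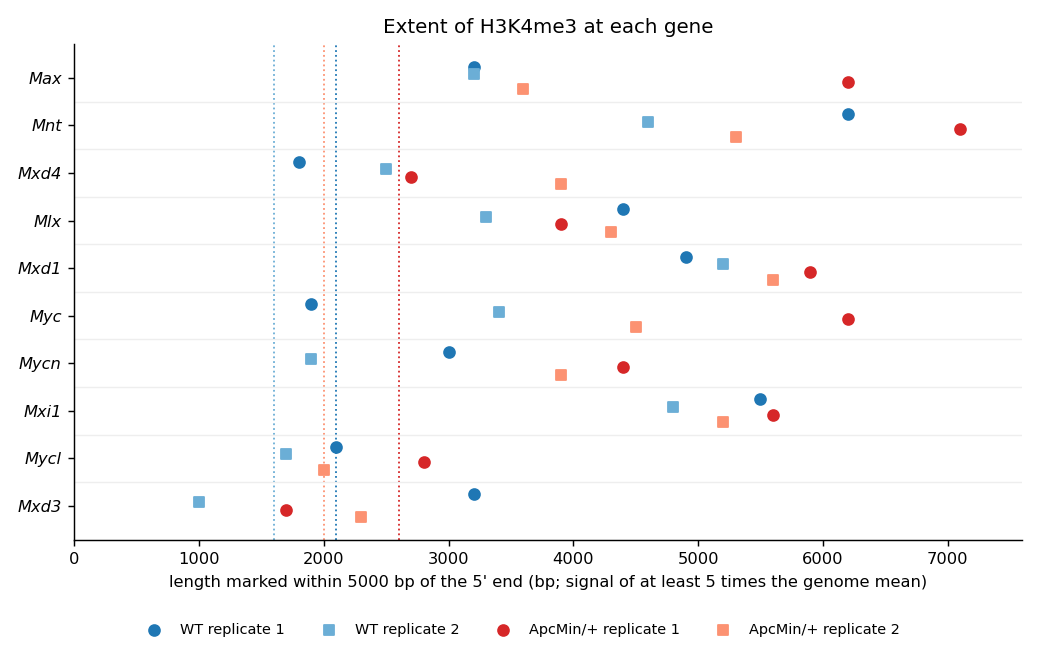
Length of the H3K4me3 mark within 5000 bp of the 5′ end of each gene, in bp, for the 4 libraries, with dotted lines at the median of all tested promoters in each library. At Mlx the length includes signal at the start of Coasy. Mnt, Mxd1 and Mxi1 lie at 4600 bp or more in every library, and at Myc the ApcMin/+ libraries (6200 and 4500 bp) lie above the WT libraries (1900 and 3400 bp).

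Enriched regions, called once on the mean of the 4 tracks, place the mark on each gene. Each 5′ end had 1 such region within 1000 bp, and 9 of the 10 were longer than at least 93.2% of the 55570 regions of the genome, whose median length was 600 bp. Those regions lie anywhere in the genome, so this is not a share among promoters. ApcMin/+ replicate 1, with 43.2% of its signal in the regions, weighed most in the mean track there. At Myc the region chr15:61984201-61988800 covered 4600 bp, from 1190 bp before the 5′ end to 3409 bp after it, and held all 8 annotated transcript starts of the gene. Its mean signal was 1.67, 2.58, 15.6 and 5.45, from 11, 57, 266 and 137 fragments, the same order of libraries as at the 5′ end. The regions of Mnt (chr11:74829301-74835200, 5900 bp), Mxd1 (chr6:86664501-86670000, 5500 bp), Mxi1 (chr19:53310301-53315200, 4900 bp) and Max (chr12:76958801-76963000, 4200 bp) ran mostly into the gene, for 4280, 4660, 4682 and 3400 bp after the 5′ end. That of Mycn (chr12:12938801-12942800) was 4000 bp long and had a mean signal of 2.44, 2.02, 10.1 and 4.04. Shorter regions marked Mxd4 (chr5:34185701-34188800, 3100 bp), Mlx (chr11:101085701-101088400, 2700 bp) and Mycl (chr4:122995401-122997900, 2500 bp). Mxd3 had the shortest, 800 bp at chr13:55329801-55330600, of which 777 bp lay before the 5′ end.

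The side of the start on which the mark lay differed between the repressors. At Mxd3 the 1000 bp before the 5′ end had 3.48, 2.75, 7.30 and 3.65, and the 1000 bp after it 0.01, 0.21, 1.86 and 1.69, lower in 4 of 4 libraries. Mxd4 was also higher before its 5′ end, with 10.6, 6.19, 21.8 and 7.40 against 4.73, 3.33, 10.6 and 3.73. At Mxi1 the signal was higher after the 5′ end in 4 of 4 libraries, with 7.47, 3.95, 17.8 and 4.63 against 0.21, 1.72, 1.45 and 1.67 before it. Mlx was higher after its 5′ end in 4 of 4 libraries too, with 13.1, 4.51, 21.6 and 6.01 against 3.67, 3.40, 7.00 and 3.01. Mnt had a dip at the start between 2 flanking maxima. It was higher before the start in 4 of 4 libraries, most so in ApcMin/+ replicate 1, with 6.57, 5.47, 37.8 and 6.77 against 6.33, 4.34, 19.3 and 4.69. In WT replicate 1 its 2 sides differed by less than 1 fragment adds.

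**Figure D4:**
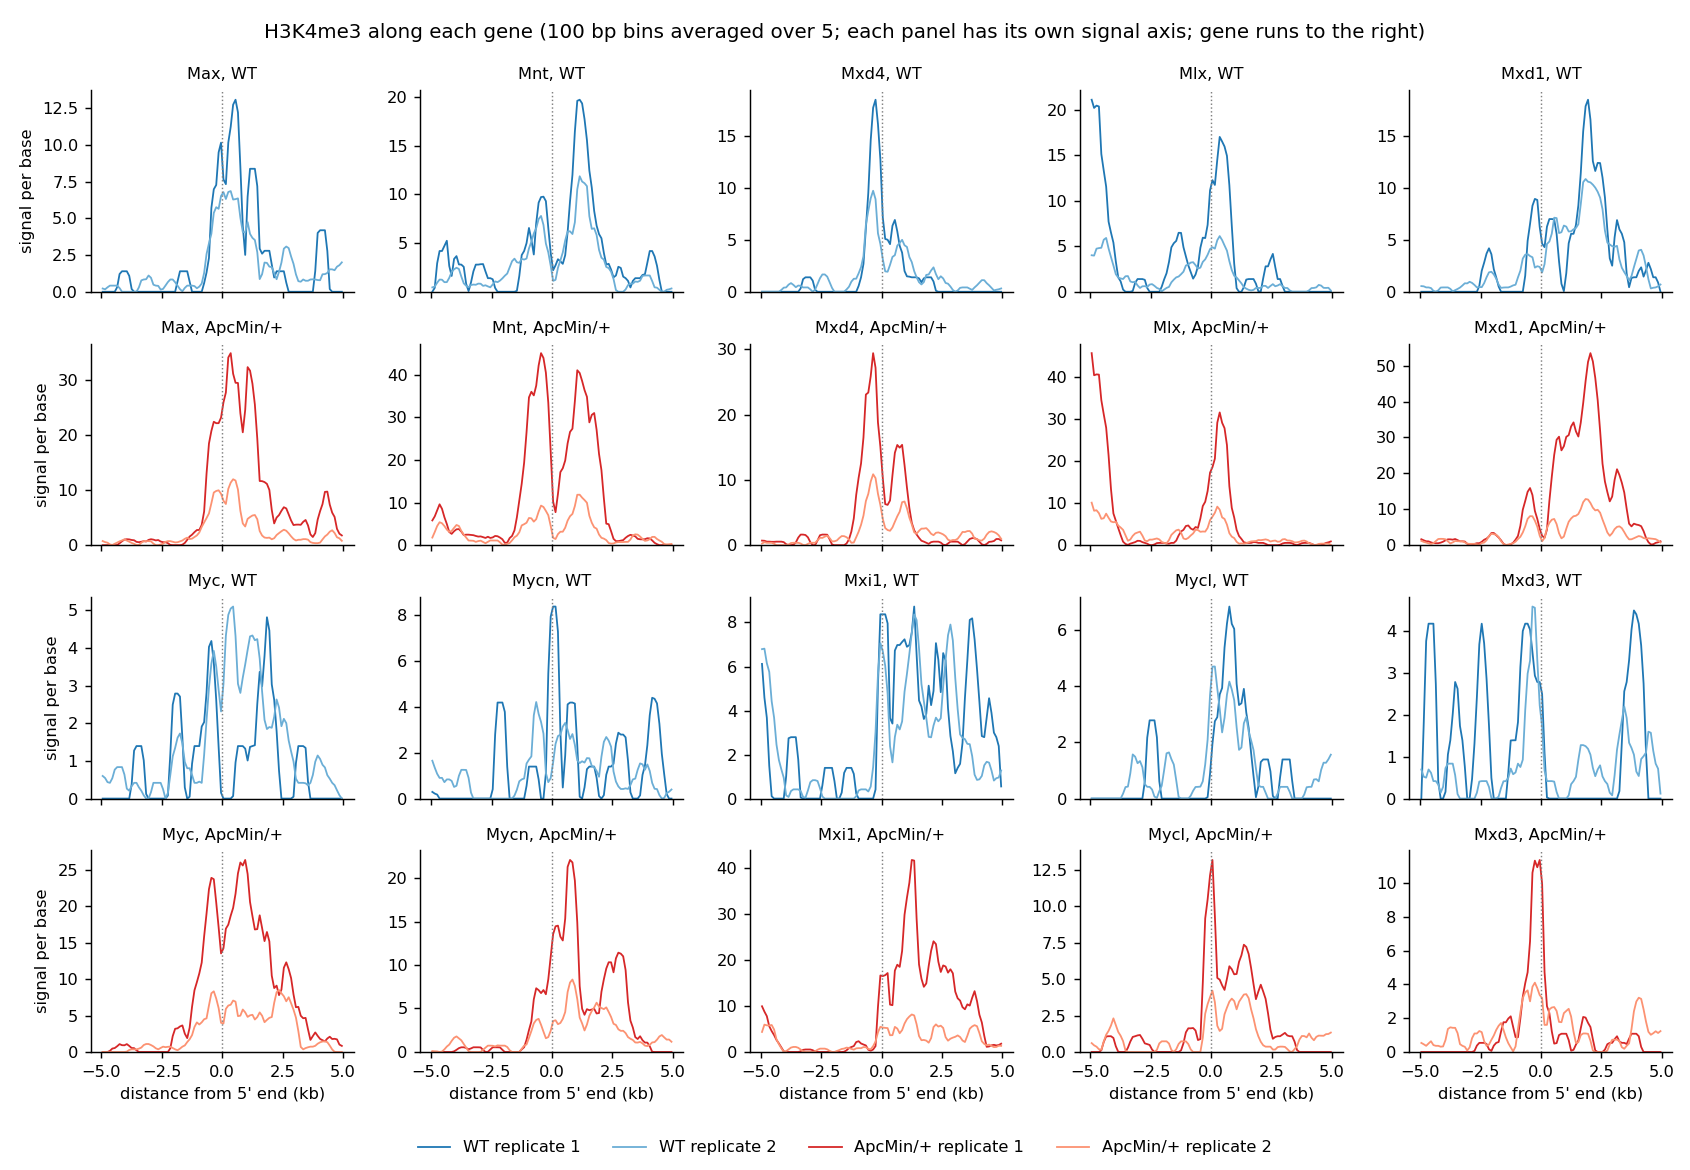
H3K4me3 signal per base along each gene, from 5 kb before to 5 kb after the 5′ end (dotted line), with WT and ApcMin/+ libraries in separate panels that each have their own signal axis. The mark of Mxd3 lies mostly before the start, those of Mxi1 and Mxd1 run into the gene, and the signal at the left edge of the Mlx panels is at the start of Coasy, 4712 bp away. In WT replicate 1 the isolated peaks rest on few fragments, each of which adds 1.40 to the plotted signal.

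Transcript starts away from the gene 5′ end carried different levels of the mark. At Mxi1 the transcript start 2548 bp into the gene had 3.98, 4.60, 16.0 and 3.47, higher than the gene 5′ end in 4 of 4 libraries, whereas the start 18895 bp into the gene had 0.70, 1.10, 2.29 and 1.41. The start at 2548 bp and the gene 5′ end each held 11 fragments in WT replicate 1. In ApcMin/+ replicate 2 they held 38 and 34, so in these libraries the difference was within counting error. A start 6548 bp into Mnt was marked as well, with 9.65, 3.49, 15.5 and 4.28. The start 1298 bp into Mycn had 1.40, 2.13, 10.5 and 4.97. At the start 6056 bp into Mxd1 the values were 1.28, 0.73, 1.57 and 1.51, below the filter of 2 in all 4 libraries. The 6 protein-coding starts of Myc that were measured spread over 2031 bp, and their mean signals lay between 5.94 and 7.84. Other genes start within 5000 bp of 3 members only, namely Gm37947 at 2089 bp from Myc, Gm44292 at 3610 bp from Mxd1 and Coasy at 4712 bp from Mlx. The start of Gm44292 lies inside the enriched region of Mxd1, where the signal of both genes cannot be told apart, and the other 2 lie outside the member's region.

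No list of genes tied to the network had a promoter past the threshold in limma in either direction, with or without centring, and their medians stayed near that of all promoters. Of the partners of Mlx and Max, Mga, Mlxip and Mlxipl, 3 of 3 passed the filter, and their median difference was 0.89, from 0.69 at Mlxipl to 1.08 at Mlxip, the partner with the highest level as well. The 6 corepressor genes, which encode the Sin3, deacetylase and related subunits that Mxd proteins and Mnt recruit, had a median of 0.91, from 0.64 at Hdac2 to 1.01 at Smarca4. Ncor1 had the highest level among them, with 10.3, 6.03, 32.0 and 7.28. Genes for Myc cofactors and turnover had 12 of 14 promoters past the filter, all but Ruvbl2 and Skp2, with a median of 0.75. They ran from 0.08 at Usp28, a deubiquitinase that stabilises Myc, to 1.09 at Kat5, a histone acetyltransferase, and Wdr5, an H3K4 methyltransferase subunit that binds Myc, had the highest level, with 7.33, 4.50, 17.1 and 5.93.

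Myc targets of growth and metabolism had 21 of 24 promoters past the filter, all but Ldha, Ccnd2 and Shmt2. Their median difference was 0.81, or -0.05 after centring, and both ApcMin/+ libraries were above both WT libraries at 10 of 21 under the deposited scaling, where 38.5% of all tested promoters had the same order. Of the 10, Eif4e, Cad and Mybbp1a had WT values of 1.16 to 1.74. They passed the filter only through their ApcMin/+ values, so their place in that count carries no weight. Nop58, a protein of small nucleolar ribonucleoproteins, had the largest difference (1.19) and Nme1, a nucleoside diphosphate kinase, the smallest (0.43), while Ncl, which encodes nucleolin, had the highest level, with 11.7, 5.64, 22.2 and 6.75. Genes repressed by Myc had 6 of 7 past the filter, all but the cell cycle inhibitor Cdkn1a. Their median was 0.62, or -0.23 after centring, from 0.20 at Ndrg1 to 0.99 at Cdkn2b, another cell cycle inhibitor, and Cebpa, a factor of differentiation, had the highest level, with 7.88, 5.31, 22.5 and 4.27. The SE was 0.88 at Nop58, below its difference, and 0.92 at Ndrg1, above its difference.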

How the data were processed

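Paired reads were trimmed (Novocraft) and aligned to mm10 (Bowtie2) by the authors, who then took out duplicates (Picard), alignments with a mapping quality under 10 (samtools) and fragments outside 150 to 500 bp. The deposited tracks hold signal, that is coverage at each base as written by HOMER, which sets every library to a total of 10000000 tags. Replicates were not pooled and no control was subtracted. Signal is relative, so a library with more of its fragments in promoters is higher at most of them.

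The signal was averaged within 1000 bp of the 5′ end of 21938 protein-coding genes. Promoters with a mean of at least 2 were tested with limma 3.58.1 (R 4.3.3, trend) on log2(signal + 1), which understates the change of low promoters, with Benjamini-Hochberg adjustment, a threshold of 0.05 and two-sided tests. Fragment numbers came from dividing the signal summed over a window by what 1 tag adds to the track, and depth ranged from 1430000 to 5470000 tags. Enriched regions were runs of 100 bp bins in which the mean track reached 5 times its genome-wide mean, with gaps of up to 500 bp closed and a length of at least 300 bp. Extents were compared by exact permutation tests (scipy 1.17.1). Simulated data with known changes were used to test the fit. Alternatives were the scaling, window, start, filter, pseudocount, marked signal, smoothing, a replicate block and leaving out each library.

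Named genes were the members and, of each list, any gene past the threshold and those with the highest level and the largest and smallest difference, with the 3 promoters nearest to Myc. The members and lists were chosen with earlier results of these data known, and support nothing on their own.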

Additional observations from a re-analysis of the deposited data

How the results depend on the processing

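Over 20 alternative settings, of which a minimum mean signal of 5 gave no value at Mxd3, Mycl and Mxi1 and a window of 2000 bp on each side none at Mxd3, the 10 members together gave 144 differences with the main direction and call, 8 that passed the threshold only there and 44 of the opposite sign. Centring each library gave -0.50 at Mycl, -0.067 at Mxd1, -0.058 at Mxd3, -0.27 at Mxd4, -0.23 at Mxi1, -0.42 at Mlx and a median of -0.062 over the members, where the deposited scaling gave 0.79. Quantile normalization gave -0.47 at Mycl, -0.093 at Mxd1, -0.27 at Mxd4, -0.24 at Mxi1, -0.42 at Mlx and a median of 0.0029. Leaving out 1 library in turn, over the deposited and the centred scaling, gave 0 to 7 members past the threshold, a median of -0.19 to 1.39, and differences of -0.71 to 0.91 at Mycl, -0.21 to 1.47 at Mxd1, -0.48 to 1.10 at Mxd3, -0.34 to 1.28 at Mxd4, -0.28 to 1.30 at Mxi1, -0.10 to 2.15 at Mnt and -0.66 to 1.17 at Mlx. The 7 calls are those without ApcMin/+ replicate 2. The median difference in extent over the members was 750 bp. It was 75 bp when a bin counted as marked at 50% of the gene's own maximum in that library, within 5000 bp. When 1 library was left out it was 425 to 900 bp, lowest without ApcMin/+ replicate 1. The cause of these changes was not tested. With the replicate number as a block, 0 members passed and the median was 0.79, and with the block and centring 0 passed, with differences of -0.50 at Mycl, -0.067 at Mxd1, -0.058 at Mxd3, -0.27 at Mxd4, -0.23 at Mxi1 and -0.42 at Mlx and a median of -0.062. The labels do not tie same-numbered libraries together, and their deviations from the group means correlated at 0.20 over 9931 promoters. Depth limits the shallowest library most, WT replicate 1, with 13 fragments at the median tested promoter against 29.3 to 97.6 in the others.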
